A study of Mus musculus with 12 samples.

Results

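Multidrug resistance of tumor cells rests in part on membrane pumps of the ABC transporter family, which use ATP to move drugs and their conjugates out of the cell. P-glycoprotein, which mice make from the paired genes Abcb1a and Abcb1b, carries doxorubicin and other bulky hydrophobic compounds, and Abcg2 (the breast cancer resistance protein) carries methotrexate, topoisomerase inhibitors and urate. The multidrug resistance proteins of the ABCC group export organic anions, glutathione conjugates, cyclic nucleotides and folates. Methotrexate, a standard drug against osteosarcoma, enters cells through the reduced folate carrier Slc19a1 and is kept inside by folylpolyglutamate synthase (Fpgs), which adds glutamates to it. The 9 genes described here, the pumps Abcb1a, Abcb1b, Abcc1, Abcc3, Abcc4, Abcc5 and Abcg2 with Slc19a1 and Fpgs, were chosen by name for these roles and are 9 of the 20144 genes with a named probe on the array.

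Expression was measured in 2 mouse osteosarcoma cell lines. Dunn cells have a low metastatic potential, and LM8 cells are a line derived from them by selection in vivo for increased metastasis. Early Dunn cells (Dunn_25) were at passage 25, late Dunn cells (Dunn_86) at passage 86, early LM8 cells (LM8_24) at passage 24 and late LM8 cells (LM8_91) at passage 91. All 4 groups grew in the same medium, DMEM and Ham F12 with fetal calf serum, and no drug treatment is named for any of them. Late cells were grown from the early cells of the same line, so each group is 1 culture history and the 3 arrays of a group are 3 RNA samples of it. Test results therefore measure the spread between these samples, which may be technical. Where the lines are compared over both passages, that spread also holds the differences between early and late cells.

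Values are log2 signals of 1-color Agilent arrays minus the 75th percentile of their own array, so that 0 is that percentile itself. This percentile lay between 253 and 522 signal units on the Dunn_25 arrays, 610 and 841 on the Dunn_86 arrays, 788 and 1148 on the LM8_24 arrays and 1033 and 1699 on the LM8_91 arrays. The scanner software called 39.4% to 59.8% of the probes well above background, which is what detected means here. The correlation between replicate arrays was 0.919 to 0.991, and the 2 lowest values both involved Dunn_86 replicate 1. Each replicate number stood for 1 slide, and each group had the same position on all 3 slides, so group and position cannot be told apart. The 9 osteoblast markers with a probe (of 10 chosen), among them Runx2, Sp7, Alpl and Col1a1, were well above background on every array of all 4 groups. Of 6 macrophage and blood markers, 2 to 4 were well above background on all arrays of a group, with Itgam and Csf1r in every group and Cd14 in 3. Ptprc and Adgre1 were above it on no Dunn array and on some but not all arrays of each LM8 group. Lyz2 was above it on all Dunn_86 arrays and on no LM8_24 array. Of 5 endothelial markers 1 or 2 were well above background on all arrays of a group, with Kdr in every group and Pecam1 in LM8_91. Cdh5 and Emcn were above it on no array. Of 5 epithelial markers 0 or 1 were, with Krt14 in 3 groups, while Krt8 and Cdh1 were above it on no array. The part of such cells in the results was not tested.

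Of the 9 genes, 6 had lower signals in LM8 than in Dunn cells with both passages pooled (6 arrays against 6). They were the pumps Abcc4, Abcg2, Abcc3, Abcb1b and Abcc5 and the methotrexate carrier Slc19a1. Without scaling between arrays, the differences of Abcb1b, Abcc5 and Slc19a1 turned to the other direction and were not called. Those of Abcc1 and Fpgs, which were not called at either scaling, turned as well. Abcc3 kept its direction without scaling but lost its call (limma adjusted p = 0.188). A gene was called when its probe had a Benjamini-Hochberg adjusted p under 0.05 in limma, over all probes. No gene of the 9 was called higher in LM8 cells. The background for this count is high, since 44.6% of all genes were called in this comparison, 39.1% lower and 5.48% higher. Among the genes well above background on all 12 arrays, 32.8% were called lower. Of the 9 genes, Abcb1a and Abcc3 are outside this set, and 5 of the others were called lower in it. Abcc4 and Abcg2, with pooled differences of 22.7-fold and 15.0-fold, are described first, together with the sequences before their listed starts.

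Abcg2 lies at chr6:58584491-58692451 and Abcc4 at chr14:118482692-118707856 in the mouse assembly GRCm38.p6. RefSeq lists 3 starts of Abcg2, on the plus strand, and 2 of Abcc4, on the minus strand. The 250 bases before each start are shown because these genes had the widest ranges of the 9, and because the starts of 1 gene differ in what they hold. They span chr6:58584283-58584532, chr6:58596422-58596671 and chr6:58640296-58640545 for Abcg2, in that order, and chr14:118706220-118706469 and chr14:118676932-118677181 for Abcc4. Both windows of Abcc4 and the windows of Abcg2 starts 2 and 3 lie inside the gene bounds given above. The window of Abcg2 start 1 overlaps the bound. No window covers the bases before the outer bound of Abcc4. Capitals mark matches, on either strand, to the GC box (GGGCGG), the CCAAT box (CCAAT), the antioxidant response element (TGACNNNGC), the TATA box (TATAAA) and the E-box (CACGTG).
Abcg2 start 1: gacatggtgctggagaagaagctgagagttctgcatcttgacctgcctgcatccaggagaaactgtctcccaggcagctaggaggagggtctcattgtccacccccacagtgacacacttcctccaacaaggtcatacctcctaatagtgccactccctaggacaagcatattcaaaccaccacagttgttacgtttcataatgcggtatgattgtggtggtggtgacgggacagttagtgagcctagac
Abcg2 start 2: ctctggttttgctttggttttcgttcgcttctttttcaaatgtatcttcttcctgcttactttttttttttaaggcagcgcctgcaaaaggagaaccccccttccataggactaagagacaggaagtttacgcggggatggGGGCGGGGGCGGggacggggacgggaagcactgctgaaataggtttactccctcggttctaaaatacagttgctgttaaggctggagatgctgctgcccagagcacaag
Abcg2 start 3: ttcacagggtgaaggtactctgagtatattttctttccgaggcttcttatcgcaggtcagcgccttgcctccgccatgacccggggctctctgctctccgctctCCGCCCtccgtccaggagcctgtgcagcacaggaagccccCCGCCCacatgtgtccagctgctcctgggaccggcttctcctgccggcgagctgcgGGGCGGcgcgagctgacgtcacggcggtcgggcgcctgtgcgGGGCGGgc
Abcc4 start 1: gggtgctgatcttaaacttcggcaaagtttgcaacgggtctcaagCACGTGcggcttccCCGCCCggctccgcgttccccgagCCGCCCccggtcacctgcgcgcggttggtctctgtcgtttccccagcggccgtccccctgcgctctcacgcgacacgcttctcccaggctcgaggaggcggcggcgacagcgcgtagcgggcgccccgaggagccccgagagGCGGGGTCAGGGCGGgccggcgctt
Abcc4 start 2: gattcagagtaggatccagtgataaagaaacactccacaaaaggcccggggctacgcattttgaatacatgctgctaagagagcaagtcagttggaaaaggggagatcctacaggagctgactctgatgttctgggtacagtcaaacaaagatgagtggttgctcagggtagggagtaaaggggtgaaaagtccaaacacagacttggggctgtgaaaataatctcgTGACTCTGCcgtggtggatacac

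The 3 windows of Abcg2 held 0, 2 and 4 GC boxes and 3, 10 and 23 CpG dinucleotides, in the order of the starts. The first window of Abcc4 held 35 CpG, more than 97.0% of the 32851 windows of this length in the table, with 3 GC boxes, 1 E-box and 1 antioxidant response element next to a GC box. The second window of Abcc4 held 4 CpG and 1 antioxidant response element. Over all windows the median was 6 CpG, and 32.7% held a GC box, 33.8% a CCAAT box, 10.2% an antioxidant response element, 12.4% a TATA box and 6.02% an E-box. Methylation and factor binding were not measured here, and the array does not tell which start was used.

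Abcg2 was the gene of the 9 with the widest range of group means, 6.01 on the log2 scale or 64.6-fold, which ranked 146 (1.29%) among the genes detected in all arrays of at least 1 group. The Dunn_25 arrays read 2.27, 2.55 and 2.53, the Dunn_86 arrays 1.29, 1.32 and 1.19, the LM8_24 arrays -0.31, -0.36 and -0.94 and the LM8_91 arrays -3.17, -3.80 and -3.72. The 4 groups did not overlap on the scaled values. Before scaling, the 2 Dunn groups overlapped, at 1458 to 3067 units in Dunn_25 and 1390 to 2101 in Dunn_86. Signal was highest in early Dunn cells and lowest in late LM8 cells, and all 12 arrays were well above background. In LM8 cells Abcg2 fell by 3.03 with passage (SE 0.27, 8.16-fold, 95% interval 5.19 to 12.8, n = 3 arrays in each group, limma adjusted p = 0.00293). It was the only 1 of the 9 genes called in that comparison, in which 2.79% of all genes were called and 1.81% were called lower. The within-slide changes ran from -3.44 to -2.78. The methods' t-test, run on the same values, gave an adjusted p of 0.052.

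In Dunn cells the difference of Abcg2 between passages was -1.18 (SE 0.28, 95% interval -1.87 to -0.49, limma adjusted p = 0.554), with late cells lower on 3 of 3 slides. No gene of the 9 was called between early and late Dunn cells by limma, where 0.00497% of all genes (1 gene) were called. By the study's looser rule, over 2-fold at an unadjusted p under 0.05, Abcg2 counted (limma unadjusted p = 0.0061) as did 4.97% of all genes, and 1 of the 9 genes had an unadjusted p under 0.05. The change in LM8 cells was larger than that in Dunn cells by 1.85 (interaction estimate -1.85, SE 0.37, limma adjusted p = 0.084), on 3 of 3 slides. This interaction was not called, but it passed with quantile normalization (limma adjusted p = 0.0244), with the percentile taken over detected probes (0.0329), with dim probes left out (0.0157) and with array quality weights (0.0157). It did not pass with normexp (-1.56, limma adjusted p = 0.353), without scaling (-2.44, 0.156) or with slide as a block (0.107).

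**Figure D1:**
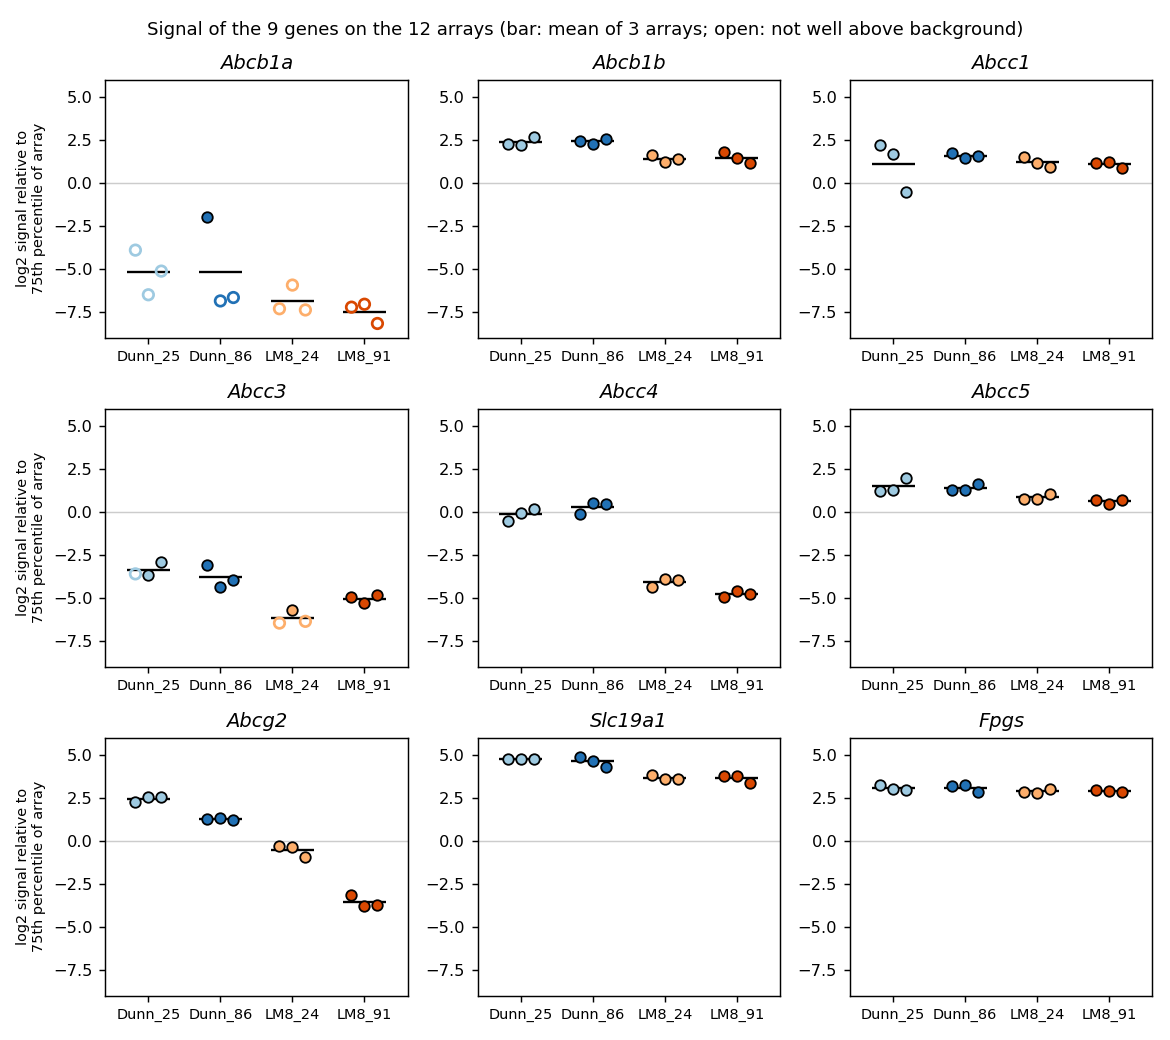
Log2 signal relative to the 75th percentile of the array (y axis) for each of the 9 genes in the 4 groups (x axis, 3 arrays each), with the mean of the group as a bar and open points for arrays on which the probe was not well above background. Abcg2 steps down over the 4 groups from 2.45 to -3.56, Abcc4 separates the lines at 0.08 and -4.43, and Fpgs stays between 2.79 and 3.24.

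Abcc4, which exports cyclic nucleotides, prostaglandins and methotrexate, had the largest difference between the lines among the 9 genes. The Dunn_25 arrays read -0.52, -0.04 and 0.17, the Dunn_86 arrays -0.11, 0.53 and 0.43, the LM8_24 arrays -4.37, -3.90 and -3.96 and the LM8_91 arrays -4.96, -4.62 and -4.76. Every LM8 array lay below every Dunn array, and all 12 arrays were well above background. The pooled difference was -4.50 (SE 0.25, 22.7-fold lower in LM8, 95% interval 15.5 to 33.3, n = 6, limma adjusted p = 3.15e-07). Abcc4 was lower by 15.4-fold in the early passages (limma adjusted p = 0.00273) and by 33.4-fold in the late passages (limma adjusted p = 0.0015). Its signals were only 38.1 to 76.8 units on the LM8_24 arrays and 33.2 to 69.1 on the LM8_91 arrays. The size of these folds thus rests on dim LM8 values. The 6 differences within slides ran from -5.19 to -3.85, and without scaling between arrays the pooled value was -3.32.

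Abcg2 was the other gene with a difference of this size. It was 15.0-fold lower in LM8 cells over both passages (95% interval 5.39 to 41.8, limma adjusted p = 0.00272), 7.91-fold lower in the early passages (limma adjusted p = 0.00591) and 28.5-fold lower in the late passages (limma adjusted p = 0.0015). The early difference of -2.98 lost its call with slide as a block (limma adjusted p = 0.0517) and without scaling (-1.50, limma adjusted p = 0.0767).

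With passage, Abcc4 moved in opposite directions in the 2 lines without a call in either. The late minus early difference was 0.41 in Dunn cells (SE 0.36, limma adjusted p = 0.767) and higher on 3 of 3 slides, and -0.70 in LM8 cells (SE 0.22, limma adjusted p = 0.226) and lower on 3 of 3 slides. Their difference was -1.12 (SE 0.39, limma adjusted p = 0.594). No interaction was called for the 9 genes, against 0.616% of all genes. By limma, 3 of the 9 (Abcg2, Abcc3 and Abcc4) had an unadjusted p under 0.05 for it, and all 3 also met the looser rule, as did 5.25% of all genes.

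**Figure D2:**
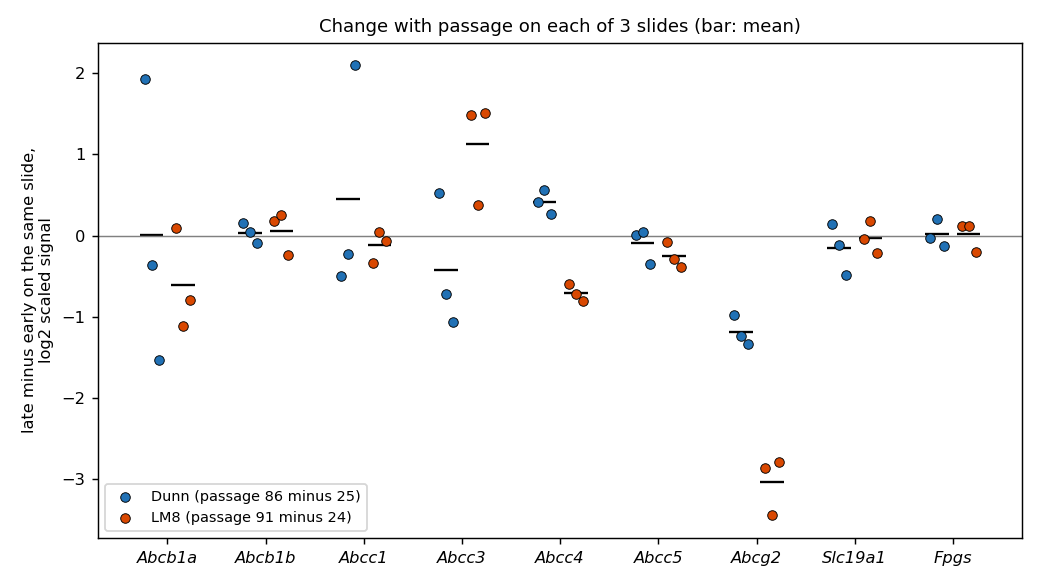
Late minus early log2 scaled signal (y axis) of the 9 genes (x axis) on each of the 3 slides, in Dunn (blue) and LM8 cells (orange), with the mean as a bar. Abcg2 is below 0 on all slides of both lines, at -3.44 to -2.78 in LM8, while Abcc3 is above 0 on the 3 slides of LM8 and Abcc4 is above 0 in Dunn and below 0 in LM8.

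Abcc3, a pump for glucuronide conjugates and bile salts that also carries methotrexate, gave a dim signal that was lower in LM8 than in Dunn cells. The Dunn_25 arrays read -3.60, -3.65 and -2.93, the Dunn_86 arrays -3.08, -4.37 and -3.99, the LM8_24 arrays -6.46, -5.70 and -6.36 and the LM8_91 arrays -4.98, -5.32 and -4.85. The probe was well above background on 2, 3, 1 and 3 arrays of these groups. On the scaled values no LM8 array reached the lowest Dunn array. Before scaling, the signals were 27.8 to 41.7 units in Dunn_25 and 38.4 to 78.8 in Dunn_86. They were 8.93 to 22.1 units in LM8_24 and 32.8 to 43.1 in LM8_91, so late LM8 cells overlapped with both Dunn groups. The pooled difference was -2.01 (SE 0.35, 4.02-fold lower in LM8, limma adjusted p = 0.00277) and that of the early passages -2.78 (SE 0.38, limma adjusted p = 0.0139). No fold is given for the early passages, since only 1 LM8_24 array was well above background. The late difference of -1.23 was not called (SE 0.40, limma adjusted p = 0.188). Without scaling between arrays the pooled value was -0.82 (limma adjusted p = 0.188) and the early one -1.295 (limma adjusted p = 0.115). With slide as a block the early difference had a limma adjusted p of 0.0693.

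In the early passages, 3 of the 9 genes (Abcc4, Abcg2 and Abcc3) were called, all lower in LM8, against 4.65% of all genes called and 3.34% called lower. In the late passages 2 were called (Abcc4 and Abcg2), both lower, against 3.85% and 2.64%. Other choices of processing moved the early count between 1 and 7 and the late count between 2 and 5. Leaving out Dunn_25 replicate 2 gave 6 in the early passages, and the early call of Abcc3 was lost without LM8_24 replicate 1 (limma adjusted p = 0.093), LM8_24 replicate 3 (0.0934) or Dunn_25 replicate 3 (0.061).

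With passage in LM8 cells, the signal of Abcc3 differed by 1.13 in late against early cells (SE 0.27, 95% interval 0.48 to 1.78, limma adjusted p = 0.124), higher on 3 of 3 slides by 0.38 to 1.52. It passed with quantile normalization (limma adjusted p = 0.0446), with dim probes left out (0.0447) and with a floor on dim signals (0.0323). With normexp background correction the value was 0.05 (limma adjusted p = 0.904). By the looser rule 2 of the 9 genes, Abcg2 and Abcc3, counted in LM8 cells, as did 7.37% of all genes. In Dunn cells the difference of Abcc3 was -0.42 (limma adjusted p = 0.821), and the lines differed by 1.55 (interaction estimate, SE 0.53, limma adjusted p = 0.581).

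**Figure D3:**
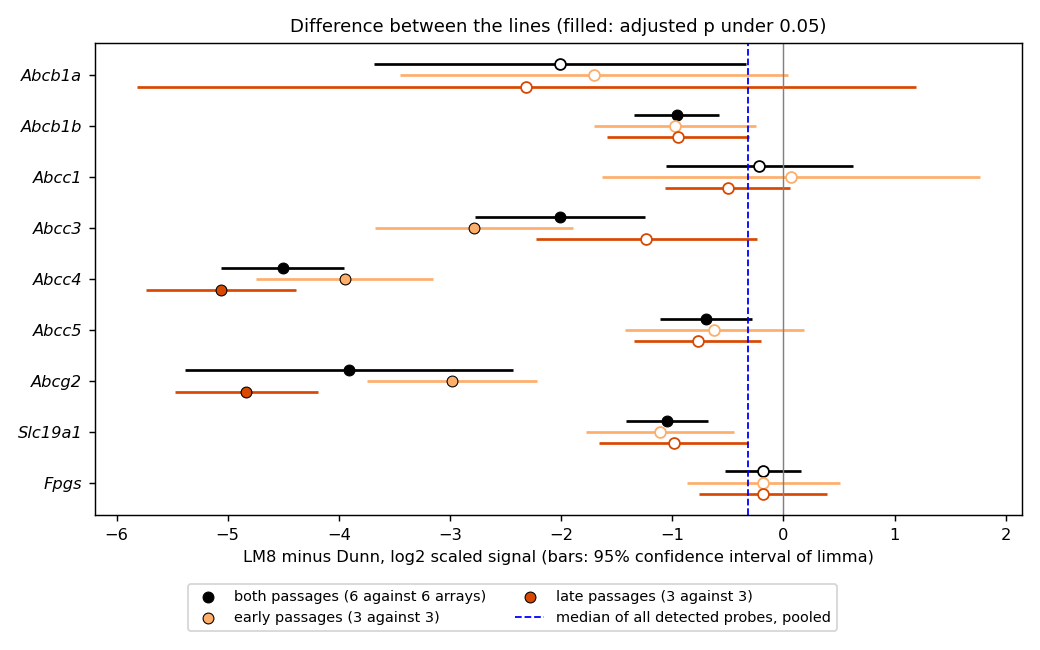
LM8 minus Dunn difference in log2 scaled signal (x axis) with its 95% confidence interval for the 9 genes (y axis), over both passages (6 against 6 arrays) and in the early and late passages (3 against 3), filled where the adjusted p was under 0.05, with the median of probes detected on every array (-0.32) as a dashed line. Abcc4 and Abcg2 lie at -4.50 and -3.91, Abcc3 at -2.01, and Abcb1b, Abcc5 and Slc19a1, which turn without scaling, between -1.05 and -0.70. Abcb1a is drawn although it was well above background on only 1 array.

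Slc19a1, the carrier that brings reduced folates and methotrexate into the cell, had lower signals in LM8 cells in both passages at this scaling. Without scaling the pooled difference was 0.14, with 0.37 in the early and -0.10 in the late passages. The Dunn_25 arrays read 4.74, 4.77 and 4.78, the Dunn_86 arrays 4.88, 4.66 and 4.30, the LM8_24 arrays 3.81, 3.58 and 3.57 and the LM8_91 arrays 3.77, 3.76 and 3.35. The lines did not overlap on the scaled values. The pooled difference was -1.05 (SE 0.17, 2.07-fold, 95% interval 1.60 to 2.67, limma adjusted p = 0.00179), and the second probe of the gene gave -1.23 (limma adjusted p = 0.0054). The differences within single passages were not called, at -1.11 in the early passages (limma adjusted p = 0.074) and -0.99 in the late passages (limma adjusted p = 0.14).

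Fpgs, which turns methotrexate into the polyglutamates that stay in the cell, had the narrowest range of group means of the 9 genes, 0.20. Its arrays read between 2.94 and 3.23 in Dunn_25, 2.81 and 3.24 in Dunn_86, 2.79 and 3.03 in LM8_24 and 2.83 and 2.97 in LM8_91, so that all 4 groups overlapped. The pooled difference was -0.18 (95% interval -0.52 to 0.16, limma adjusted p = 0.344), but 0.15 with normexp (limma adjusted p = 0.521) and 1.01 without scaling (limma adjusted p = 0.0539). The changes with passage were 0.02 in Dunn cells (95% interval -0.73 to 0.76) and 0.01 in LM8 cells (95% interval -0.42 to 0.45).

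Abcb1b and Abcb1a, the neighboring genes for P-glycoprotein on chromosome 5 (chr5:8798147-8866314 and chr5:8567091-8748575), differed in how often a signal was found. Abcb1b read 2.28, 2.21 and 2.66 in Dunn_25, 2.43, 2.25 and 2.58 in Dunn_86, 1.60, 1.21 and 1.42 in LM8_24 and 1.77, 1.47 and 1.18 in LM8_91, well above background on all 12 arrays. Every scaled LM8 value of Abcb1b lay below every Dunn value. Its pooled difference was -0.96 (SE 0.18, 1.95-fold, 95% interval 1.49 to 2.54, limma adjusted p = 0.00367), but 0.23 without scaling (limma adjusted p = 0.611). The change with passage was 0.04 in Dunn cells (95% interval -0.71 to 0.78) and 0.06 in LM8 cells (95% interval -0.49 to 0.62).

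The probe of Abcb1a was well above background on 1 of the 12 arrays, Dunn_86 replicate 1, where it read -1.98. The other 11 arrays lay between -8.17 and -3.90, and no fold is given for this gene. The array with the signal is the one that correlated least with its replicates. The pooled difference missed the threshold (limma adjusted p = 0.0508) and passed it in some other settings, among them slide as a block (0.0329) and normexp (0.0172), although only 1 array was well above background. The probes' sequences were not used here, so whether each probe tells these similar genes apart was not tested.

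The windows of 250 bases before the starts of both genes, shown because the pair differed in detection, on 12 arrays for Abcb1b and 1 for Abcb1a, spanned chr5:8566841-8567090 for Abcb1a and chr5:8797897-8798146 for Abcb1b, both on the plus strand of GRCm38.p6, with the same motifs in capitals.
Abcb1a: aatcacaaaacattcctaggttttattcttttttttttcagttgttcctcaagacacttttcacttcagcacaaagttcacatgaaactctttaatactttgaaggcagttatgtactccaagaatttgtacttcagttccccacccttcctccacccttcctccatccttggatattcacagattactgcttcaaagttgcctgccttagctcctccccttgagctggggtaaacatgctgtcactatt
Abcb1b: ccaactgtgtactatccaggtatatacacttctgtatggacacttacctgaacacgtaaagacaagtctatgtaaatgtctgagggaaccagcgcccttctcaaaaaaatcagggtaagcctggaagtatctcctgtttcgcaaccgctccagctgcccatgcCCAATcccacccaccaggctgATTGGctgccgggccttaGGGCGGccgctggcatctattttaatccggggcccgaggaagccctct
The window of Abcb1b held 1 GC box, 2 CCAAT boxes in opposite orientation and 9 CpG, and that of Abcb1a held none of the 5 motifs and 0 CpG. Over all windows 32.7% held a GC box and 33.8% a CCAAT box, and the median was 6 CpG. Methylation and factor binding were not measured, and a link between these windows and detection was not tested.

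Abcc5, an exporter of cyclic nucleotides, read 1.23 to 1.97 in Dunn_25, 1.24 to 1.63 in Dunn_86, 0.76 to 1.05 in LM8_24 and 0.48 to 0.70 in LM8_91 by its brightest probe. The pooled difference was -0.70 (SE 0.19, 1.62-fold lower in LM8, limma adjusted p = 0.0244), and 0.49 without scaling (limma adjusted p = 0.267). The call was lost without LM8_91 replicate 2 (limma adjusted p = 0.0613) or replicate 3 (0.0555). Of its 3 other probes, 2 gave -0.72 and -0.56 (limma adjusted p = 0.038 and 0.035), and the remaining one was well above background on 2 of 12 arrays.

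Abcc1, which exports glutathione conjugates and anthracyclines, was not called in any comparison. Its arrays read 2.22, 1.69 and -0.53 in Dunn_25, 1.46 to 1.72 in Dunn_86, 0.93 to 1.51 in LM8_24 and 0.86 to 1.20 in LM8_91. Dunn_25 replicate 3 was far below the other Dunn arrays. The pooled difference was -0.22 (95% interval -1.06 to 0.63, limma adjusted p = 0.651), -0.59 without that array (limma adjusted p = 0.058), and 0.97 without scaling (limma adjusted p = 0.227).

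**Figure D4:**
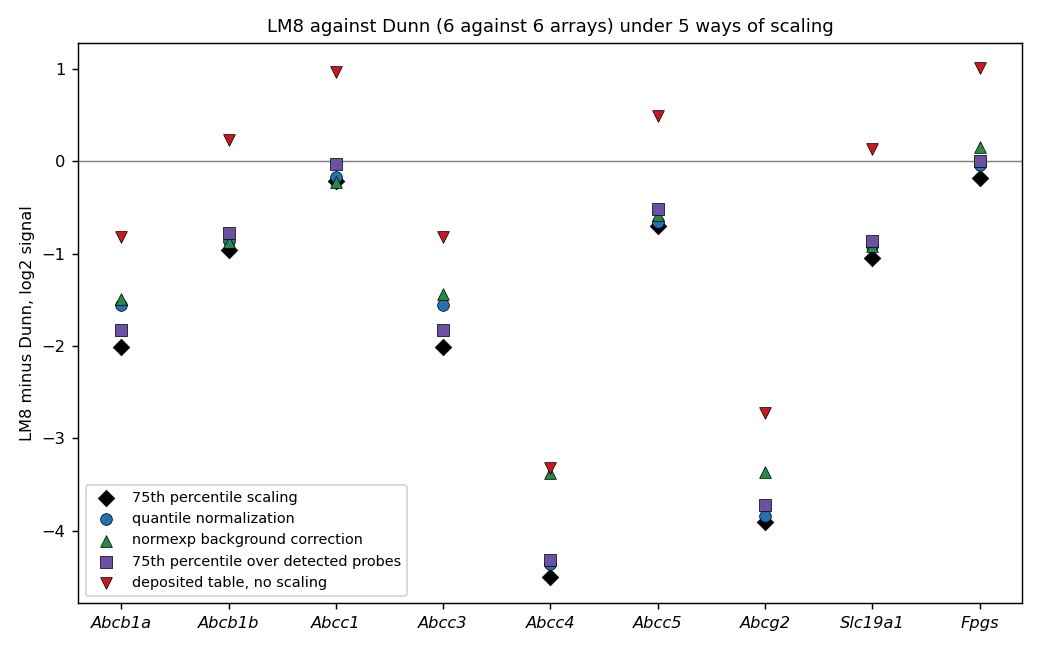
LM8 minus Dunn difference in log2 signal (y axis) of the 9 genes (x axis) over both passages, under 5 ways of scaling or background correction. Abcc4 and Abcg2 lie at or below -2.72 under all 5, whereas 5 genes lie above 0 in the deposited table without scaling, Abcb1b at 0.23, Abcc5 at 0.49, Slc19a1 at 0.14, Abcc1 at 0.97 and Fpgs at 1.01.

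Without scaling, the median LM8 minus Dunn difference of all genes over both passages was 0.50. After scaling, the median of all probes was -0.80, and that of probes detected on every array was -0.32. Relative to the latter, the LM8 minus Dunn difference was -4.19 for Abcc4, -3.59 for Abcg2, -1.69 for Abcc3, -0.73 for Slc19a1, -0.64 for Abcb1b and -0.38 for Abcc5. With passage the median of these probes moved by -0.26 in Dunn and -0.07 in LM8 cells, against which Abcg2 stood at -0.92 and -2.96.

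The genes with group means most like those of Abcg2, by the root mean square of the differences after centering over the 4 groups, were Nostrin (0.156), Chst7 (0.188) and Mtus2 (0.273) among 11290 genes. Nostrin means were -1.68, -2.88, -5.03 and -7.96 in Dunn_25, Dunn_86, LM8_24 and LM8_91. For Abcc4 they were Nap1l3 (0.167), Ankrd6 (0.179) and Vav3 (0.188), and for Abcc3 they included Nat2 (0.123) and Plac1 (0.130). Some of these matches rest on dim values. The LM8_91 means of Nostrin, Nap1l3 and Vav3 were -7.96, -8.86 and -9.02. Abcb1a, well above background on 0 LM8 arrays, read -8.17 to -5.93 on them.

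Around the 9 genes, 19 genes of folate and antifolate handling were read. Over both passages 2 were called higher and 6 lower in LM8 cells, against 5.48% and 39.1% of all genes, with a list median of -0.24 against -0.68 for all genes. Without scaling 5 were called higher and 0 lower. Aldh1l1, which oxidizes formyl folate, differed by -2.27 on the log2 scale (SE 0.31, limma adjusted p = 0.000568), and by -1.09 without scaling (limma adjusted p = 0.0811). Mthfd2, of mitochondrial folate metabolism, was higher by 1.14 (limma adjusted p = 0.0288). Mthfs, well above background on 6 LM8 arrays and 1 Dunn array, was higher by 1.79 (limma adjusted p = 0.0344) but differed by -0.52 with normexp. Mtr, methionine synthase, differed by -1.02 (limma adjusted p = 0.0117) but by 0.16 without scaling. With passage only Aldh1l1 was called, higher in late LM8 cells by 1.18 (SE 0.21, limma adjusted p = 0.0433), a call lost with normexp (0.109) and without scaling (0.0525), and none of the 19 was called in Dunn cells by limma (0 at an unadjusted p under 0.05).

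Of 16 other transporters tied to drug handling, 0 were called higher and 9 lower in LM8 cells (5.48% and 39.1% of all genes), with a median of -1.07 against -0.68, and 8 of the 16 were well above background in all arrays of at least 1 group. Without scaling 1 was called higher and 1 lower. Mvp, the major vault protein, differed by -2.39 (limma adjusted p = 0.00111), and by -1.20 without scaling (limma adjusted p = 0.0624). Slco4a1, an organic anion carrier, was called lower (limma adjusted p = 0.000306) with 1 Dunn and 0 LM8 arrays well above background, so no fold is given. Abcc12 and Abcc2 passed as well but were not well above background in either line. In LM8 cells Abcb11, the bile salt pump, was called higher in late cells (limma adjusted p = 0.0144), but with 2 late and 0 early arrays well above background no fold is given, and the call was lost with normexp (limma adjusted p = 0.896). The passage change of Abca3, a lipid transporter, differed between the lines by 2.74 (interaction, limma adjusted p = 0.0345). This call was lost with the percentile over detected probes (limma adjusted p = 0.0649), with normexp (0.122) and without scaling (0.64).

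Of 17 genes of doxorubicin and cisplatin handling, 1 was called higher and 6 lower in LM8 cells (5.48% and 39.1% of all genes), with a median of -0.04 against -0.68. Without scaling 9 were called higher and 1 lower. Mgst1, a membrane-bound glutathione transferase, was at least 34.2-fold lower in LM8 cells at this scaling (limma adjusted p = 8.63e-07) and differed by -3.23 on the log2 scale with normexp, which adds an offset of 50 to the signals (limma adjusted p = 0.000269). Its probe was well above background on all 6 Dunn arrays and on 0 of 6 LM8 arrays. The copper transporter Atp7a differed by -1.30 (limma adjusted p = 0.0054), and by -0.11 without scaling (limma adjusted p = 0.778). Xpa, a nucleotide excision repair gene, differed by -0.91 (limma adjusted p = 0.0288), turned to 0.27 without scaling and lost its call with normexp (limma adjusted p = 0.0546). Atp7b passed but was not well above background in either line.

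Of 13 regulators and Nrf2 targets, 0 were called higher and 4 lower in LM8 cells (5.48% and 39.1% of all genes), with a median of -0.39 against -0.68, and without scaling 3 were called higher and 0 lower. Hmox1, heme oxygenase, differed by -2.22 (limma adjusted p = 0.0441), a call lost with quantile normalization (0.0926), with the percentile over detected probes (0.0678) and without scaling (-1.03, limma adjusted p = 0.411). Keap1, the inhibitor of Nrf2, differed by -1.16 (limma adjusted p = 0.00789) and Ybx1 by -0.98 (limma adjusted p = 0.00818), and both turned without scaling, to 0.03 and 0.22. Nr1i2, the xenobiotic receptor PXR, passed but was not well above background in either line. Ahr, a receptor for aromatic ligands, was called lower in late than in early LM8 cells (limma adjusted p = 0.0106), but with 1 early and 0 late arrays well above background no fold is given, and the call was lost with normexp (limma adjusted p = 0.522).

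**Figure D5:**
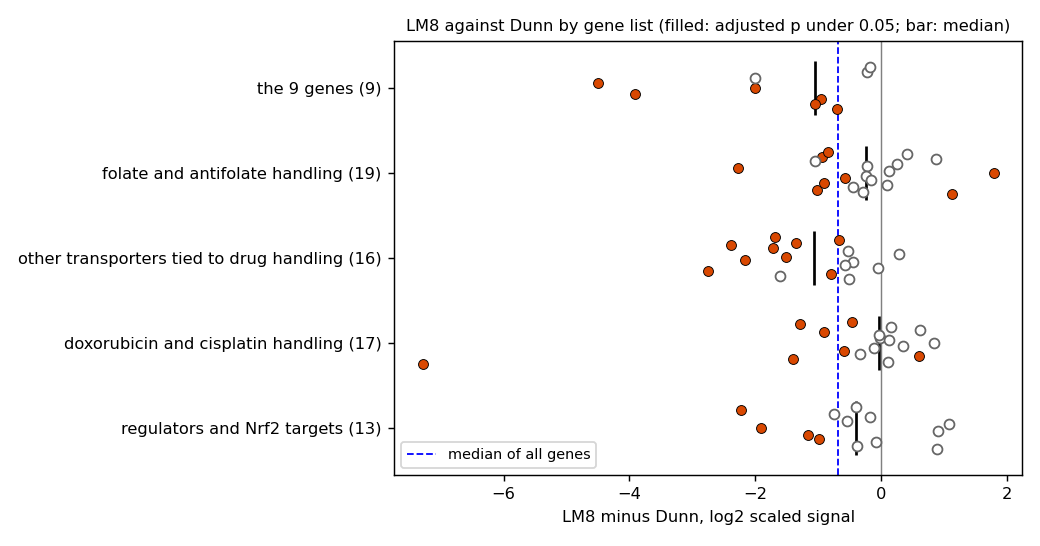
LM8 minus Dunn difference in log2 scaled signal over both passages (x axis) for the 9 genes and 4 gene lists (y axis, number of genes in brackets), with 1 point for each gene, filled where the adjusted p was under 0.05, the list median as a bar and the median of all genes (-0.68) as a dashed line. The medians are -1.05 for the 9 genes and -0.24, -1.07, -0.04 and -0.39 for the lists in the order drawn, and all turn above 0 without scaling, in which all genes have a median of 0.50.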

How the data were processed

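Total RNA of 12 samples was labeled with Cy3 and hybridized to Agilent mouse 4x44K v2 arrays, 3 for each of 4 groups, grouped by the sample labels. The authors deposited the output of Agilent Feature Extraction 10.7.3, whose processed signal is an intensity with the background already subtracted, and 1 table whose intensities are the same signal rounded (largest difference 0.497%), without scaling. The paper names TriReagent and the labels RNeasy for the extraction.

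From these intensities, control and outlier spots were left out, 43020 spots were averaged into 39429 probes, and log2 signals minus the 75th percentile of each array were taken. Probes were named by accession through RefSeq (GRCm38.p6), which matched 26581 (67.4%) to 20144 genes. The probe with the highest mean stood for its gene, and the 9 genes had 13 probes. Motifs were searched in the 250 bases before each RefSeq start, and 7 of the 9 genes had an entry. The tests were those of limma 3.58.1 (lmFit, eBayes; R 4.3.3), fitted to the arrays of each comparison alone, with Benjamini-Hochberg adjustment over all probes, and checked on simulated data. The interaction used all 12 arrays. The plain t-test pools the variance of both groups and leaves out the eBayes step of limma. The paper names a t test by way of limma, so the plain test is an alternative here. The scanner files used here hold no mean signal, so normexp (offset 50) was run on the median signal and median background. A list gene well above background on every array of 1 group and none of the other was given a bound against the lowest signal well above background of each array. Precision is limited by the 3 arrays in a group.

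The 9 genes, the lists and the rules for naming genes were chosen with earlier results of these data known. All 9 genes are named. From the lists, genes called in a passage comparison or in the interaction and up to 4 called genes with the largest pooled difference are named. Likeness was computed for the 3 genes with the widest range, and 1 gene that it gave is not reported here. Alternatives were background correction, scaling, filters and floors on dim probes, the choice of probe, 1 fit over all arrays, slide as a block, array weights and leaving out each array. Plots were drawn with matplotlib 3.10.9.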

Additional observations from a re-analysis of the deposited data

Results flagged for a closer look

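Abcc1 on Dunn_25 replicate 3, at -0.53, was the lowest of the 6 Dunn arrays, with a gap to the next array above the 95% critical value of Dixon's test (0.625 of the range). Of 36 such gaps examined 1 was found, and chance gives about 1 in 20 groups.

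The change of Abcc4 with passage was higher on all 3 slides of Dunn cells and lower on all 3 of LM8 cells. The difference between these changes was -1.12 on the log2 scale (limma interaction, adjusted p = 0.594), and it was not called.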

How the results depend on the processing

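Of the 12 called differences of the 9 genes, 141 of 150 values under other settings and 103 of 108 with 1 array left out kept their direction and call. Without scaling between arrays, the pooled differences of Abcb1b, Abcc5 and Slc19a1 turned, to 0.23, 0.49 and 0.14. Those of Abcc1 and Fpgs (not called) turned as well, to 0.97 and 1.01. The early call of Abcg2 was lost without scaling. Abcc3 lost both its pooled call (-0.82, limma adjusted p = 0.188) and its early call (-1.295, limma adjusted p = 0.115). The scaling takes the same value, the 75th percentile of the array, from every probe of that array. This percentile lay between 253 and 841 signal units on the Dunn arrays and between 788 and 1699 on the LM8 arrays. Why the percentiles differed was not tested. The number of genes called lower in LM8 was 6 over both passages, and 2 without scaling. In the early passages 3 were called, and 5 with quantile normalization, 1 without scaling, 5 with dim probes left out (fewer probes tested), 6 with a floor, 5 in 1 fit over all arrays, 1 with the replicate block and 7 with array weights. In the late passages 2 were called, and 5 with dim probes left out, 4 in 1 fit and 5 with array weights. With passage in LM8 cells 1 was called, and 2 with quantile normalization, with dim probes left out or with a floor. The plain t-test called 0, and 2 counted by the looser rule. By that rule 1 counted with passage in Dunn cells and 3 in the interaction. For the interaction, 0 were called, and 1 with quantile normalization, with the percentile over detected probes or with dim probes left out, and 2 with array weights. With 1 array left out, the counts were 2 to 6 in the early passages, 2 in the late passages, 5 to 7 over both, 1 with passage in LM8, and 0 with passage in Dunn cells and for the interaction. Replicate numbers mark slides: over 18 pairs of arrays with the same number, deviations from the group means correlated at -0.237 to 0.678, with 12 over 0.1, so the block was kept as an alternative. Under the block the early calls of Abcg2 and Abcc3 were lost, and the pooled difference of Abcb1a passed. Dim signals limit Abcb1a, Abcc3, the LM8 values of Abcc4 and the dim list genes.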
